A study of Xenopus laevis with 4 samples.

Results

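The lysophosphatidic acid (LPA) receptors of Xenopus laevis were found by name, as every row of the gene table whose symbol, without a final .L or .S, begins with lpar and a digit. The rule gave 12 of 49078 rows, an L and an S copy each of lpar1 to lpar6. The family was chosen by its name with the EU-RNA and total RNA values of these genes already known, and lpar6.L was singled out in that choice. Differences of the receptors between the groups are therefore given as descriptions, and nothing is read from whether a receptor passed a threshold. X. laevis carries a pair of related subgenomes, and L and S mark the copies on the long and the short chromosome. Reads that fit both copies can be assigned to the wrong one.

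The study compared captured new RNA with total RNA of mid-blastula embryos, 9 hours old or so, with 2 libraries in each group. EU-RNA came from embryos injected as single cells with 10 nl of EU (5-ethynyl uridine) at 50 mM, which stands in for uridine in RNA made from then on. That RNA was coupled to biotin and captured on streptavidin beads. Normal libraries hold uncaptured RNA, maternal and new, of normal embryos per the extraction protocol, although the treatment text attached to those samples also describes the injection. No genotype or strain is given in the sources used here. Capture and injection cannot be told apart as sources of a difference, and the labels do not say whether replicates were separate clutches, so a p-value covers the spread between these libraries only.

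LPA is a small signalling lipid that acts on cells from outside through G protein-coupled receptors. Its receptors fall into a pair of separate families. lpar1, lpar2 and lpar3 belong with the sphingosine 1-phosphate receptors, whereas lpar4, lpar5 and lpar6 are closer to the P2Y nucleotide receptors. In mammals several of them couple to G proteins of the G12 and G13 class. In Xenopus blastulae, LPA signalling through lpar1 and lpar2 is known to act on the actin layer under the cell surface.

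Totals were 47598265 to 209445802 estimated counts per library, with the lowest and the highest both in Normal. Levels are given as CPM, in which each library has the same nominal total, with factors from the trimmed mean of M-values (TMM), which places the typical transcript near an EU-RNA over Normal ratio of 1. Genes known for new transcription at this stage (10 rows of sia1, sia2, nodal5, nodal6, mixer and gs17) summed to 2177 to 2392 CPM in EU-RNA and 628 to 659 CPM in Normal. For 8 rows of maternal genes such as h1foo and ccnb1 the sums were 520 to 588 CPM and 695 to 729 CPM. Of these 8 rows, 6 were lower in both EU-RNA libraries than in both Normal libraries and 2, dazl.L and pou5f3.3.S, were higher, with EU-RNA over Normal ratios of 1.49 and 1.46. Maternal genes were thus well detected in EU-RNA, and whether those reads came from new RNA was not tested. A level in EU-RNA is therefore not by itself read as a level of new RNA. Of 15 rows of genes of later tissues, 9 had 0 counts in all libraries. Among the others the insulin gene ins.L was at 27.3 and 17.6 CPM in EU-RNA and 1.78 and 2.00 CPM in Normal.

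All 12 receptor rows together were at 973 and 709 CPM in EU-RNA replicates 1 and 2 and at 147 and 173 CPM in Normal replicates 1 and 2. The means were 841 ± 187 CPM and 160 ± 18.3 CPM (SD, n = 2), a ratio of 5.26. In counts not corrected for transcript length, most of this excess lay in lpar6, whose L copy was singled out with these values known. Its L and S rows summed to 657 ± 153 CPM in EU-RNA and 89.9 ± 17.2 CPM in Normal, a ratio of 7.31, while the 10 rows of lpar1 to lpar5 summed to 184 ± 34.4 CPM and 70.1 ± 1.01 CPM, a ratio of 2.62 (SD, n = 2).

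**Figure D1:**
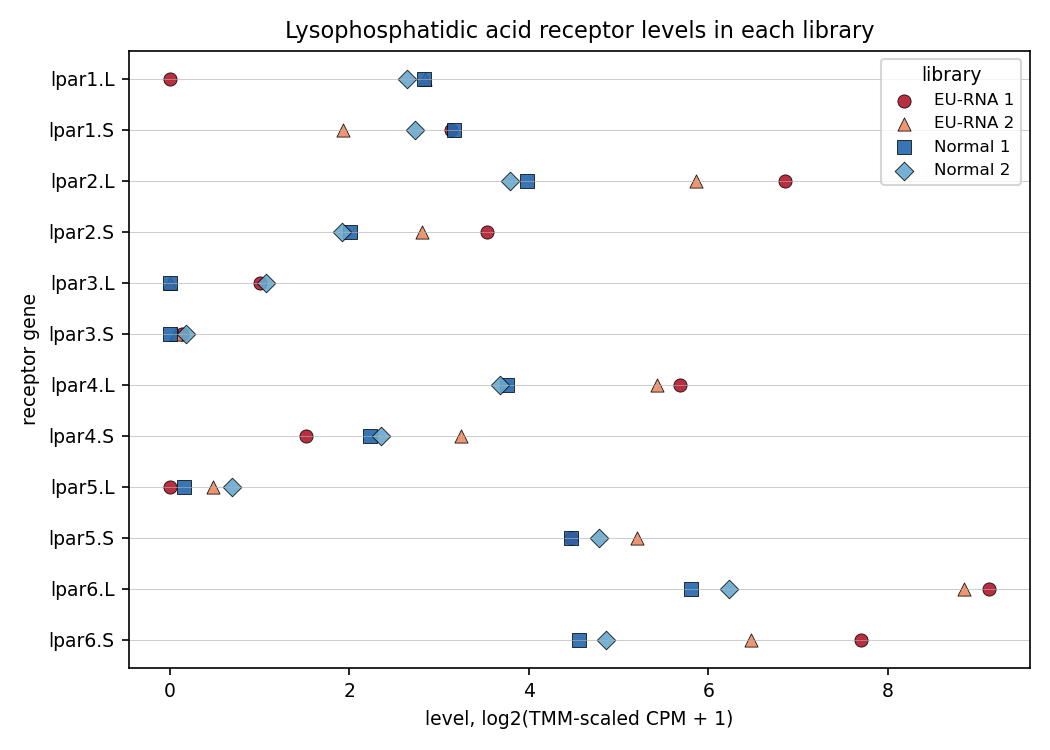
Level of each receptor gene in each library, as log2(TMM-scaled CPM + 1) on the horizontal axis. Each point is a library. Both EU-RNA libraries lie to the right of both Normal libraries for lpar2.L, lpar2.S, lpar4.L, lpar6.L and lpar6.S, and the groups overlap for the other 7 rows.

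lpar6 encodes the receptor that in humans is needed for hair growth and that couples mainly to G proteins of the G12 and G13 class. lpar6.L had 47469 and 61852 counts in EU-RNA and 2448 and 13867 counts in Normal. On the TMM scale this was 558 and 461 CPM against 55.1 and 74.1 CPM. Both EU-RNA values were above both Normal values, and the order from the top was EU-RNA replicate 1, EU-RNA replicate 2, Normal replicate 2 and Normal replicate 1. The group means were 509 ± 68.2 and 64.6 ± 13.4 CPM (SD, n = 2), and the fitted log2 fold change of EU-RNA over Normal was 2.98 (SE 0.25). Of all 26543 features tested, 8.79% had a larger log2 fold change.

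lpar6.S was at 208 and 88.1 CPM in EU-RNA and at 22.6 and 28.0 CPM in Normal. The S copy was thus also higher in both EU-RNA libraries, with a wider gap between them than lpar6.L had. Its log2 fold change was 2.55 (SE 0.43), and 1.75 without EU-RNA replicate 1.

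In the RefSeq annotation of assembly Xenopus_laevis_v10.1, lpar6.S overlaps the span of rb1.S, the retinoblastoma gene, and no gene overlaps lpar6.L. Neither the build behind the counts nor their use of strand is known from the sources used here. The level of rb1.S was 69.8 and 112 CPM in EU-RNA and 71.9 and 84.9 CPM in Normal, so that its groups overlapped (log2 fold change 0.22, SE 0.28, edgeR adjusted p = 0.728). Whether reads of rb1.S entered the lpar6.S counts was not tested. Among the 4 genes nearest lpar6.L, the activin receptor gene acvr1b.L passed the test, at 221 and 211 CPM in EU-RNA and 50.2 and 82.1 CPM in Normal (log2 fold change 1.71, SE 0.28, edgeR adjusted p = 0.0237). acvrl1.L and med4.L were also higher in both EU-RNA libraries (log2 fold changes 3.63, SE 1.16, and 0.87, SE 0.78). They did not pass (edgeR adjusted p = 0.146 and 0.592). The groups of itm2b.L overlapped (-0.24, SE 0.46, edgeR adjusted p = 0.823). Over all features tested, 26.4% were higher in both EU-RNA libraries. Beside lpar6.S, the groups of med4.S, rcbtb2.S and acvrl1.S overlapped (log2 fold changes -0.79, -0.71 and -0.27, SE 0.72, 1.13 and 0.59). None of them passed (edgeR adjusted p = 0.598, 0.788 and 0.846). The neighbours were taken by position and not by their values.

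Of the EDG-type receptors, lpar2.L was at 115 and 57.3 CPM in EU-RNA and 14.7 and 12.8 CPM in Normal. It thus stood higher in both EU-RNA libraries. The log2 fold change was 2.65 (SE 0.38), and 2.00 without EU-RNA replicate 1. lpar2.S drew fewer counts, with 10.5 and 6.003 CPM in EU-RNA and 3.02 and 2.79 CPM in Normal. Its groups did not overlap either, but the log2 fold change of 1.51 had an SE of 0.87.

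lpar1 gave another picture. lpar1.L had 0 and 828 counts in the EU-RNA libraries and 271 and 983 in the Normal libraries. A count of 0 in EU-RNA replicate 1 allows up to 0.0352 CPM at a limit of 3 counts, a limit that covers counting error only. EU-RNA replicate 2 stood at 6.17 CPM, beside 6.10 and 5.25 CPM in Normal. Its values in EU-RNA therefore lay on either side of the Normal ones, and the fitted log2 fold change of -0.88 had an SE of 2.23.

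lpar1.S went the other way between the same libraries. It was at 7.78 and 2.81 CPM in EU-RNA and 7.97 and 5.66 CPM in Normal (log2 fold change -0.36, SE 0.89). With both copies added, lpar1 had 662 and 1205 counts in EU-RNA, or 8.38 ± 0.854 CPM against 12.5 ± 2.23 CPM in Normal (SD, n = 2). By library the pair was at 7.78 and 8.99 CPM in EU-RNA and 14.1 and 10.9 CPM in Normal. It was thus lower in both EU-RNA libraries, although neither copy was by itself. The summed pair was therefore more alike between the EU-RNA libraries than either copy.

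lpar3 was barely detected. lpar3.L had 85 and 0 counts in EU-RNA and 0 and 205 counts in Normal, and lpar3.S had 8 and 6 against 0 and 25. Each lpar3.L group thus had a library at 0. lpar3.S was the receptor row that did not pass the filter on low counts, which left 11 of 12 in the fit. The sign of the log2 fold change of lpar3.L (-0.14, SE 3.32) was set by which library was left out, from -9.07 without EU-RNA replicate 1 to 8.46 without Normal replicate 2. Both of those values compare with libraries at 0 and are no measure of size.

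Of the P2Y-type receptors beside lpar6, lpar4.L was at 50.5 and 42.1 CPM in EU-RNA and 12.6 and 11.8 CPM in Normal. lpar4 is a G protein-coupled receptor known in mammals for its role in blood vessel formation. The L copy was higher in both EU-RNA libraries with a small spread in each group, and its log2 fold change was 1.93 (SE 0.29). lpar4.S was at 1.86 and 8.49 CPM in EU-RNA, on either side of 3.69 and 4.12 CPM in Normal, and its log2 fold change of 0.41 (SE 1.12) was -1.12 without EU-RNA replicate 2.

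lpar5.S was at 21.1 and 35.9 CPM in EU-RNA and 21.2 and 26.6 CPM in Normal. Its groups overlapped, and its log2 fold change of 0.25 (SE 0.37) lay near the median of 0.0087 over all features tested. lpar5.L, the other copy, had 0 and 53 counts in EU-RNA and 5 and 114 in Normal, with a log2 fold change of -0.87 (SE 2.69).

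Among the 11 receptor rows in the fit, edgeR's quasi-likelihood test over all 26543 features placed lpar2.L, lpar4.L, lpar6.L and lpar6.S among the features called higher in EU-RNA (adjusted p below 0.05) and none among those called lower. Over all features tested, 4.69% were called higher and 0.889% lower. Both EU-RNA libraries were above both Normal libraries in 5 of the 12 rows and below them in none, against 26.4% and 30.6% of all features tested. Rows were counted singly here, and the summed lpar1 pair was lower in both EU-RNA libraries. Because the family was chosen with this contrast known, nothing is read from these counts.

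**Figure D2:**
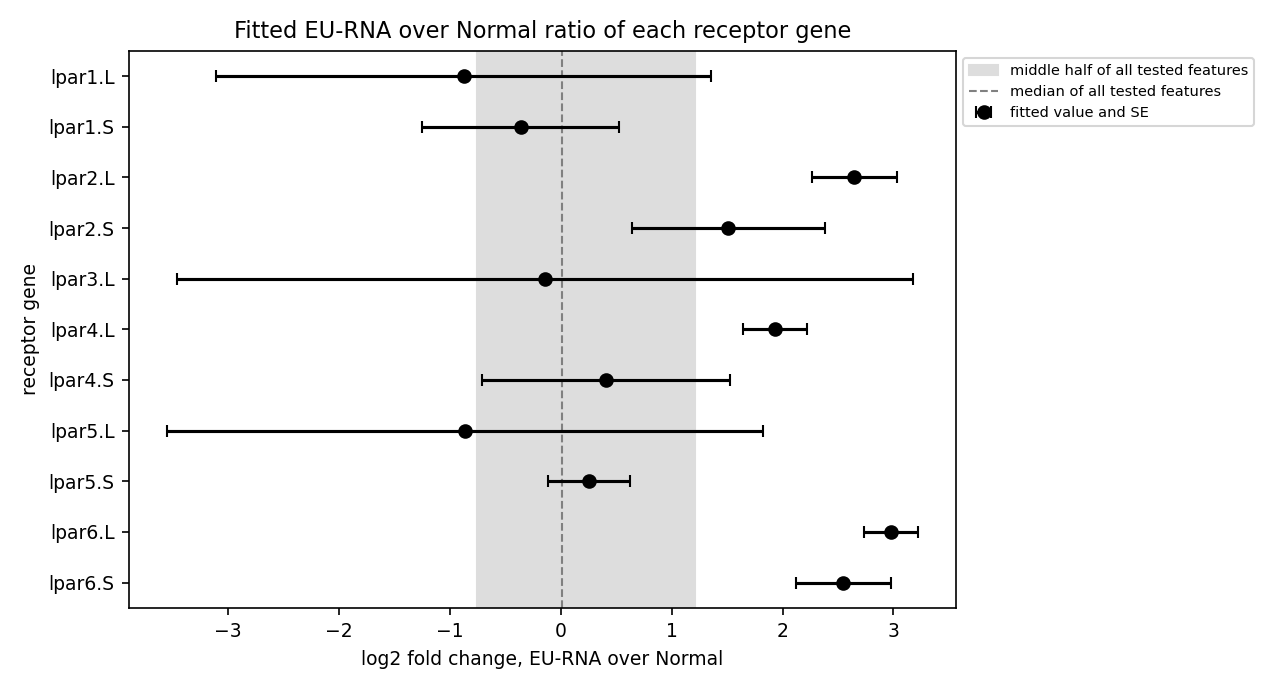
Fitted log2 fold change of EU-RNA over Normal for the 11 receptor rows in the fit, with bars of 1 SE. The grey band spans the 25th to 75th percentile of all features tested (-0.76 to 1.21), and lpar2.L, lpar4.L, lpar6.L and lpar6.S lie to the right of it with their bars, whereas the bars of lpar1.L, lpar3.L and lpar5.L are the widest.

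The make-up of the receptor counts is given as shares, which all move with the lpar6 counts that dominate the sum, so a smaller share need not mean a lower level. Like the fold changes, the shares are descriptions. They compare a gene with itself across libraries, since counts were not corrected for transcript length and do not rank receptors against each other. lpar6.L and lpar6.S together held 78.6% and 77.5% of the receptor counts in EU-RNA and 52.8% and 59.0% in Normal, or 78.1% ± 0.790 and 55.9% ± 4.40 (SD, n = 2). lpar5.S held 3.62% ± 2.05 in EU-RNA and 14.9% ± 0.684 in Normal (SD, n = 2), although its mean level was 28.5 CPM in EU-RNA and 23.9 CPM in Normal, with overlapping groups. lpar1.L and lpar1.S had 0.436% ± 0.616 and 0.598% ± 0.284 in EU-RNA against 3.59% ± 0.784 and 4.34% ± 1.52 in Normal (SD, n = 2). The share of lpar2.L, by contrast, was much alike, at 9.95% ± 2.63 and 8.71% ± 1.85 (SD, n = 2).

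**Figure D3:**
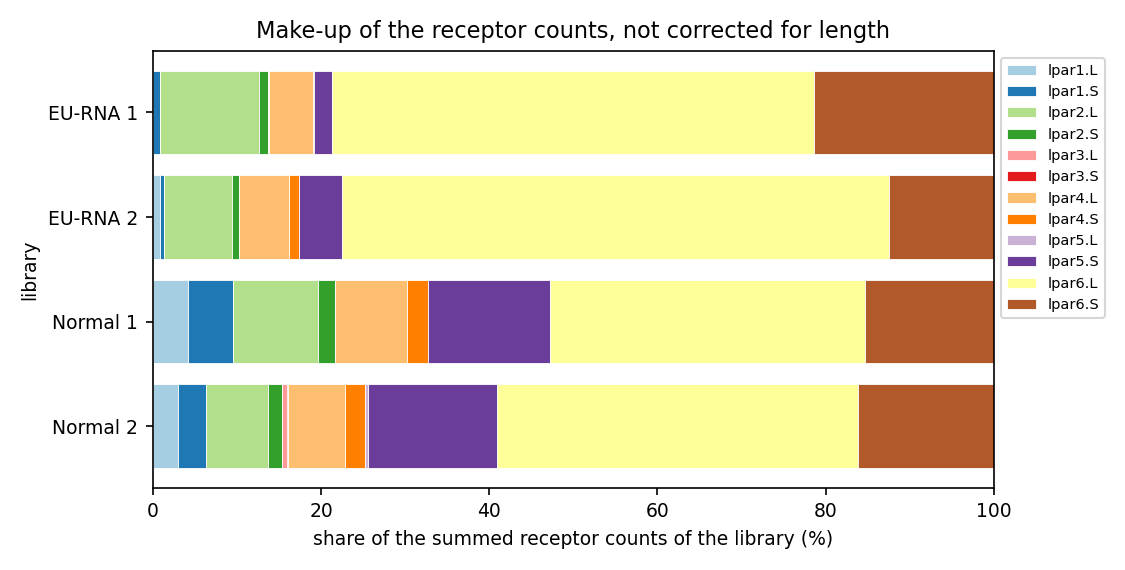
Share of each receptor row in the summed receptor counts of a library, in percent, not corrected for transcript length. Each bar is a library; the lpar6 segments take 77.5% and 78.6% of the EU-RNA bars and 52.8% and 59.0% of the Normal bars, and the lpar5.S and lpar1 segments are wider in Normal.

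The L copy gave most counts of lpar2, lpar4 and lpar6 in every library, and the S copy gave nearly all counts of lpar5. For lpar2 the L share was 91.6% and 90.5% in EU-RNA and 83.0% and 82.1% in Normal, with 95% Wilson intervals of 91.1% to 92.1%, 89.9% to 91.1%, 80.2% to 85.5% and 80.7% to 83.5%. The EU-RNA and Normal intervals did not overlap. For lpar6 the L share was 72.9% and 84.0% in EU-RNA and 70.9% and 72.6% in Normal, so EU-RNA replicate 2 stood apart from the other 3 libraries. For lpar4 it was 96.5% and 83.2% in EU-RNA and 77.3% and 74.1% in Normal. The lpar4 intervals of the groups did not overlap either. Those of EU-RNA replicates 1 and 2 were also apart, at 95.9% to 97.0% and 82.3% to 84.1%, so intervals without overlap do not by themselves mark a difference between groups. The lpar1 L share was 0% and 68.7% in EU-RNA and 43.4% and 48.1% in Normal. For lpar3, where counts were few, it was 91.4% of 93 counts and 0% of 6 counts in EU-RNA and 89.1% of 230 counts in Normal replicate 2. Intervals cover counting error only, and a wrong split of shared reads between copies would change these shares.

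**Figure D4:**
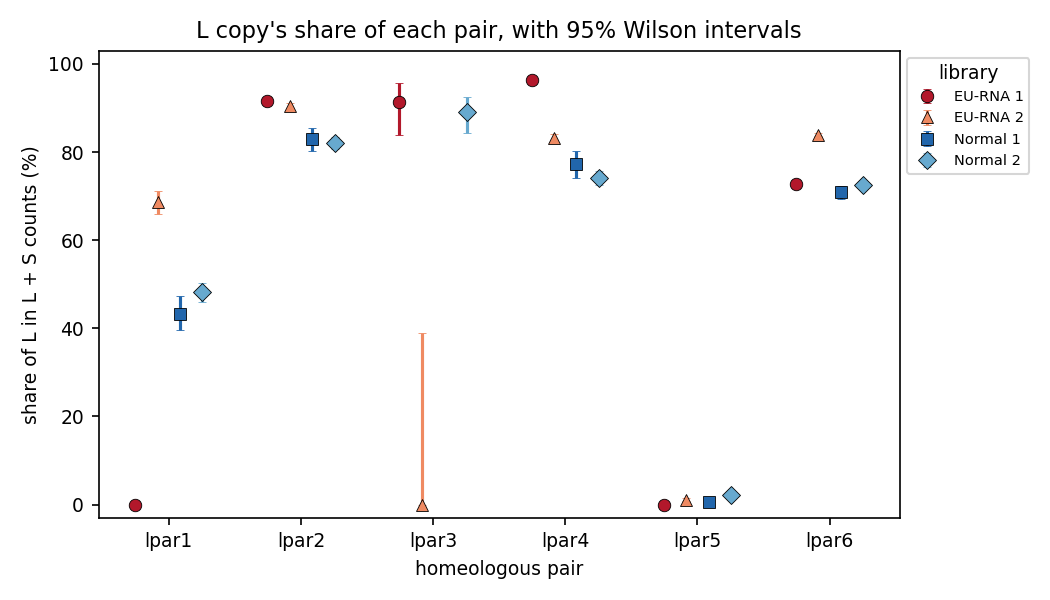
Share of the L copy in the L plus S counts of each receptor pair, in percent, by library, with 95% Wilson intervals for counting error. The lpar2 shares lie above 90% in both EU-RNA libraries and near 82% to 83% in Normal, whereas the lpar1 shares of the EU-RNA libraries are 0% and 68.7%; Normal replicate 1 has no lpar3 counts and no point.

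The 5 gene symbols with a level profile most like that of lpar6.L, by Euclidean distance of log2(CPM + 1) over the 4 libraries, were rhbdd2.L, bix1.2.S, adamts1.L, klf12.S and znf33a.L, at distances of 0.26, 0.28, 0.34, 0.38 and 0.40. bix1.2 is a Mix-type homeobox gene of the mesendoderm, adamts1 encodes a secreted metalloprotease and klf12 a zinc finger factor. bix1.2.S was at 466 and 473 CPM in EU-RNA and 59.1 and 72.2 CPM in Normal. The log2 fold changes of the 5 ranged from 2.76 for klf12.S to 2.99 for znf33a.L, and a pseudocount of 0.1 gave the same 5 genes. Likeness over 4 libraries says only that levels and ratios were close.

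Genes around LPA signalling were taken from 6 lists of 97 symbols, which matched 131 rows, of which 99 were tested. The same fit called 4 of them higher in EU-RNA and none lower, so 4.04% were higher against 4.69% of all features. The 4 higher genes were called higher in all 9 alternatives. Unadjusted p was below 0.05 by edgeR for 17 higher and 6 lower rows, and DESeq2 called 16 rows higher and 1 lower. Over all 27754 features that it tested, DESeq2 called 3388 higher and 2240 lower. For unadjusted p, no share over all features was taken. The 4.69% is no yardstick for these counts or for those of single lists below, and no excess is read from them. Leaving out EU-RNA replicate 1 gave 15 higher and 9 lower calls. Leaving out EU-RNA replicate 2 gave 15 and 15. In such fits the lone EU-RNA library is assumed to vary like Normal. Calls over all features rose in both directions in these fits as well. No excess is therefore read from these counts or from those of single lists. The median log2 fold change of all 99 rows was 0.075, beside 0.0087 for all features.

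Genes that make LPA did not pass in either direction. They include enpp2, which encodes autotaxin, the secreted enzyme that releases LPA from lysophosphatidylcholine. The enpp2.L row was at 25.4 and 29.3 CPM in EU-RNA and 26.5 and 27.5 CPM in Normal, on the log2 scale a difference of 0.020 (SE 0.28, edgeR adjusted p = 0.980). A second row named enpp2, with no copy letter, was at 8.39 and 15.1 CPM against 21.9 and 14.7 CPM, and its groups overlapped (-0.64, SE 0.50, edgeR adjusted p = 0.530). Of the 8 tested rows, gpam.S, for an enzyme that makes LPA inside cells (-1.21, SE 0.49, edgeR adjusted p = 0.195), and the lysophospholipase D gene gdpd1.S (1.44, SE 1.08, edgeR adjusted p = 0.504) had the smallest p. gpam.S was called lower without EU-RNA replicate 1 (edgeR adjusted p = 0.00341). None were called by DESeq2, and unadjusted p was below 0.05 for 0 higher and 1 lower row by edgeR. With EU-RNA replicates 1 and 2 left out in turn, 1 and 2 rows were called lower.

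Of 20 tested rows in the list for LPA removal, 2 were higher, none was lower and 18 did not pass. The median log2 fold change was -0.30. The list holds agpat genes, so its median does not describe the phosphatases alone. The agpat rows ran from -1.79 for agpat5.L (SE 0.78) to 2.09 for agpat2.S (SE 0.74), and none of them passed. This list also holds plppr genes, which are related to the phosphatases by name, and whether they remove LPA was not tested. The lowest and the highest log2 fold change were theirs, with -2.32 for plppr2.L (SE 2.69) and 3.74 for plppr3.S (SE 1.52). The 2 higher rows encode lipid phosphate phosphatases, membrane enzymes that strip the phosphate from LPA outside the cell. plpp3.L was at 61.9 and 43.2 CPM in EU-RNA and 8.30 and 8.65 CPM in Normal (log2 fold change 2.63, SE 0.32, edgeR adjusted p = 0.00940). plpp2.L was at 127 and 111 CPM against 35.3 and 37.7 CPM (1.70, SE 0.20, edgeR adjusted p = 0.00904). The calls were of the L copies only, as plpp2.S and plpp3.S did not pass. The groups of plpp2.S overlapped, at 18.3 and 31.8 CPM against 17.1 and 23.0 CPM (0.32, edgeR adjusted p = 0.723). plpp3.S was higher in both EU-RNA libraries, at 11.3 and 17.8 CPM against 5.42 and 3.14 CPM (1.77, edgeR adjusted p = 0.166). plpp1.L, of the same group, did not pass, at 8.36 and 16.1 CPM against 35.0 and 23.7 CPM (-1.26, edgeR adjusted p = 0.163). Nor did plpp5.L, whose groups overlapped (-0.40, edgeR adjusted p = 0.544). Unadjusted p was below 0.05 by edgeR for 5 higher and 1 lower row, and DESeq2 called 5 higher and 0 lower. Without EU-RNA replicate 1, 4 rows were called higher and 3 lower. Leaving out EU-RNA replicate 2 gave 3 higher and 3 lower calls.

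Among related receptors, 26 of 44 rows were tested. Of these, 2 were higher, none was lower, and the median log2 fold change was 1.88. Most of the tested rows had low levels and a wide SE. gpr174.L, for example, had 0 and 343 counts in EU-RNA and 0 and 31 in Normal (3.89, SE 3.55). ptafr.S had 123 and 530 counts in EU-RNA and 0 in each Normal library. The median is therefore not read as a shift of these receptors as a class. Rows with a narrower SE that did not pass were f2rl1.L (1.11, SE 0.27), f2rl1.S (1.31, SE 0.30) and s1pr5.L (1.49, SE 0.42). Each was higher in both EU-RNA libraries (edgeR adjusted p = 0.0780, 0.0676 and 0.116). No tested row of this list with an SE as narrow was lower in both. A narrow SE went with higher counts, however. p2ry1.S and p2ry10.S, which were lower in both, had means of only 0.441 and 2.37 CPM in Normal. The rows were also picked with their values known, so no shift is read from them. The groups of s1pr5.S overlapped (0.095, SE 1.80). p2ry2.L, which encodes a receptor for ATP and UTP, was at 678 and 550 CPM in EU-RNA and 66.7 and 81.5 CPM in Normal (3.05, SE 0.23, edgeR adjusted p = 0.00372). Its values ran close to those of lpar6.L. The other tested P2Y rows had a wide SE, so these values cannot tell whether they shared this as a class. The other copy, p2ry2.S, was at 9.37 and 0.589 CPM in EU-RNA and 3.04 and 1.64 CPM in Normal, so its groups overlapped. p2ry10.S had a log2 fold change of -3.38 (SE 1.94), whereas p2ry8.S had 2.58 (SE 1.74). ptafr.L, for the receptor of platelet-activating factor, was at 55.7 and 36.1 CPM against 8.60 and 7.97 CPM (2.47, SE 0.35, edgeR adjusted p = 0.0156). The edgeR count rose to 6 without EU-RNA replicate 1 and to 6 without EU-RNA replicate 2. DESeq2 called 7 higher and 0 lower, and unadjusted p was below 0.05 by edgeR for 7 higher and 1 lower row.

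No row passed among 17 tested for G protein alpha subunits, 17 of the Hippo arm, which covers yap1, its partners and its targets, and 11 of the phospholipase C and growth factor shedding arm. Medians were -0.52, 0.15 and -0.33 on the log2 scale. In these 3 lists, unadjusted p was below 0.05 by edgeR for 2, 3 and 0 higher and for 2, 0 and 1 lower rows, and DESeq2 called 1, 2 and 1 higher and 0, 0 and 1 lower. Without EU-RNA replicate 1, edgeR called 2, 2 and 1 higher and 3, 1 and 1 lower. Leaving out EU-RNA replicate 2 gave 2, 3 and 1 higher and 6, 1 and 3 lower calls. With all libraries kept, edgeR called 1 Hippo row higher with scaling by library size only, 1 with the replicate block and 2 without a filter. Of the G protein rows, 1 was called higher with scaling by library size only. Without a filter, 1 was called higher and 1 lower, and the replicate block called 1 lower. gna13.S, for the G13 alpha subunit, was at 268 and 233 CPM in EU-RNA and 156 and 160 CPM in Normal (0.66, SE 0.19, edgeR adjusted p = 0.111), and gnai1.S had -0.66 (SE 0.22, edgeR adjusted p = 0.161). The highest-ranking Hippo rows by p were tead4.S (1.77, SE 0.43, edgeR adjusted p = 0.0789) and amot.L (1.02, SE 0.28, edgeR adjusted p = 0.105). Of the 9 alternatives, 7 called tead4.S higher, with adjusted p from 8.9e-13 to 0.0912 over all 9, and 4 each called amot.L and gna13.S higher. gnai1.S was called lower in 2, those that leave out either EU-RNA library. tgfa.L, for a growth factor released by shedding, had no count in EU-RNA (0 in each library) and stood at 2.14 and 1.52 CPM in Normal (edgeR adjusted p = 0.143), while its receptor gene egfr.L was at 10.7 and 2.92 CPM against 1.13 and 0.924 CPM (edgeR adjusted p = 0.250). The alternatives called tgfa.L lower in 3 and egfr.L higher in 2 of 9.

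**Figure D5:**
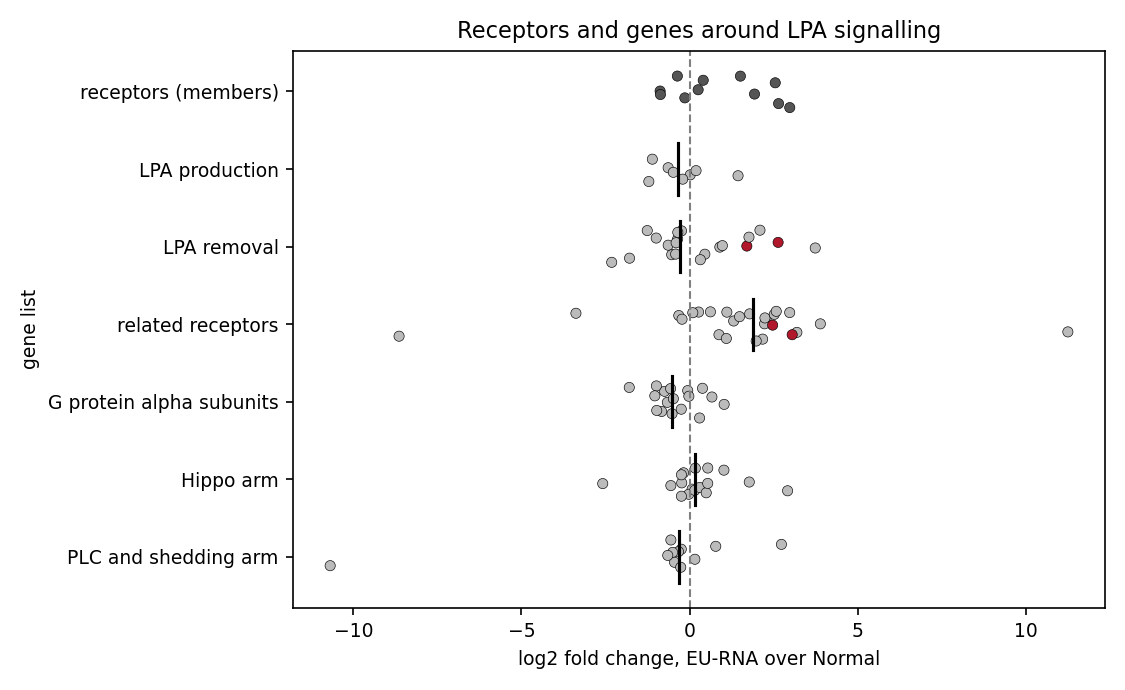
Fitted log2 fold change of EU-RNA over Normal for each tested row of the receptors and of the 6 lists. Each point is a row, in red where called higher and in light grey otherwise, with the receptors in dark grey and their calls not marked, since they were chosen with this contrast known; black bars are list medians and the dashed line is the median of all features, and points beyond 8 on either side include rows at 0 counts in a whole group, whose fitted value is no measure of size.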

How the data were processed

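RNA was sequenced from 2 EU-RNA and 2 Normal libraries. The authors deposited 1 table with a column of whole-number estimated counts for each library. The tools named are bcl2fastq and Salmon 0.12.0, per the submitters' processing notes; transcript set, build, strand and length scaling are not given in the sources used here. No sample column was left unused.

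Counts were fitted in edgeR 4.0.16 (R 4.3.3) by quasi-likelihood with TMM factors, filterByExpr, group as the sole term and Benjamini-Hochberg adjustment over 26543 features (threshold 0.05); SE is the absolute log2 fold change over the square root of F. The fit was tested on simulated data. The 12 receptors all matched RefSeq by symbol; only names and neighbours were used. Members and lists were chosen with earlier results of these data known. Genes named by a set rule are all receptors, up to 6 calls per list by p (or 2 genes where none passed), and the 5 nearest profiles. Neighbours were taken by position. Other list rows, such as f2rl1.L, s1pr5.L, agpat5.L and plppr3.S, fall outside this rule and were picked with their values known. Alternatives were DESeq2 1.42.0, other scaling, no filter, each library left out and a replicate block. A list of genes set at the start is not reported here.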

Additional observations from a re-analysis of the deposited data

How the results depend on the processing

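The log2 fold change of lpar6.L was 2.79 to 3.24 over the 9 alternatives, within the spread between replicates. Over all features, 1246 were called higher and 236 lower by edgeR; the counts were 3388 and 2240 by DESeq2, 2488 and 1134 without a filter, and 1197 to 4577 and 151 to 5218 with a library left out. Scaling by library size only called 142 lower and moved the median log2 fold change of all features from 0.0087 to 0.28. The 4 higher and 0 lower genes of the LPA lists became 16 and 1 by DESeq2 and 11 and 1 without a filter, 8 higher with scaling by library size only, and 5 to 15 higher and 0 to 15 lower with a library left out. With the replicate block, 680 features and 1 list gene were called lower, and 1789 and 7 higher. Deviations of same-numbered libraries had r = 0.0038 across 26543 features. This r weighs all features alike, whatever their level, so it cannot exclude pairs. The labels give replicate numbers only, and the numbers are not read as pairs. The other results kept their side or stayed within the spread in 251 comparisons with an alternative, while 14 values moved, 60 calls or counts rose past the threshold or 1.5-fold limit and 0 were lost. The cause was not tested. The sign of lpar1.L, lpar1.S, lpar3.L, lpar4.S, lpar5.L and lpar5.S changed in at least 1 alternative.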
